A study of Mus musculus with 2 samples.

Results

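The primitive endoderm (PrE) genes described here are the transcription factors Sox17, Gata4, Gata6, Sox7 and Foxa2, the receptor Pdgfra, the endocytic adaptor Dab2 and the endocytic receptor genes Lrp2, Cubn and Amn. They were chosen by name, and these 10 genes are among 52366 in the table of UMI counts (UMI, unique molecular identifier, the tag given to each captured transcript). They were read in 24 single mouse pseudoblastocysts, embryos with a cavity that were collected at 96 h postinsemination (hpi) without assessing whether they held an inner cell mass. All came from in vitro fertilization of B6D2F1 oocytes with ICR sperm, lost the zona pellucida to Actinase E, and fell into 4 groups of 6: 1C embryos from whole zygotes whose zona was removed at 5 hpi, and 2CB, 4CB and 8CB embryos, each grown from 1 blastomere isolated at 24 hpi for the 2-cell stage and at 48 hpi for the 4-cell and 8-cell stages. Libraries were made with the CEL-Seq2 protocol in 2 pools of 12 embryos, one holding 1C with 8CB and the other 2CB with 4CB, so a difference between these pairs of stages and a difference between the pools cannot be told apart. The columns do not say which embryos shared a parental embryo or a culture day, and p-values therefore measure only the spread between these embryos.

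The PrE is the second epithelium of the mouse blastocyst. It separates from the epiblast inside the inner cell mass when fibroblast growth factor (FGF) signalling sustains Gata6 in some cells, which then turn on Pdgfra, Sox17, Gata4 and Sox7 in turn while the others keep Nanog. Its later derivative, the visceral endoderm, takes up maternal proteins and vitamins through megalin (the product of Lrp2) and the complex of cubilin (Cubn) with amnionless (Amn), whose tails recruit clathrin through the adaptor Dab2, and part of it expresses Foxa2.

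Total UMIs ranged from 70941 to 1507471 per embryo, and the stage medians were 244312 (1C), 519932 (2CB), 216325 (4CB) and 313283 (8CB). Levels are given as CPM, UMI counts scaled to the total of the embryo, and since only the 3′ end of a transcript was tagged, they are compared between embryos and not between genes. The largest count of 1 gene in 1 embryo, 53029, exceeds the 4096 sequences that a UMI of 6 bases can have, so counting intervals may be too narrow. Where all embryos of a group were at 0, 3 counts over the group served as the floor. The embryos were a mixture of cell types, and fewer cells of a type cannot be told apart from less RNA per cell. Of markers of other cell types, the summed level of 11 trophectoderm genes was 748 to 1091 CPM in 1C and 810 to 1215 CPM in 8CB, against 3162 to 6147 CPM in 2CB and 3288 to 6527 CPM in 4CB. The 10 epiblast markers summed to 696 to 1287 CPM in 1C, 405 to 1074 CPM in 2CB, 339 to 1087 CPM in 4CB and 550 to 1990 CPM in 8CB. All 6 cumulus and granulosa cell markers were at 0 in every embryo, 5 definitive endoderm and gut markers summed to at most 22.4 CPM in any embryo, and 3 blood markers to at most 5.77 CPM. The 8 oocyte markers summed to 34.6 to 110 CPM in 1C, 5.08 to 22 CPM in 2CB, 0 to 25.5 CPM in 4CB and 14.1 to 93.8 CPM in 8CB.

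Pdgfra is shown as the gene that varied most closely with Sox17 among the 5 that could be correlated. Dab2 and Lrp2 are shown as the endocytic genes measured in every embryo. Each is given as the 300 bases around a start site, from 250 before to 50 after it, as RefSeq gives them for GRCm38.p6. Pdgfra (gene at 75152292 to 75198215, plus strand) has the window chr5:75152001-75152300, Dab2 (gene at 6299788 to 6440712, plus strand) has its upstream window at chr15:6299539-6299838, and Lrp2 (gene at 69424340 to 69586065, minus strand) has chr2:69585980-69586279 on the minus strand. Capitals mark matches to GATAA or GATAG, the core bound by GATA factors, on either strand, and ATTGT, a core of SOX factors, was searched on both strands as well.
Pdgfra: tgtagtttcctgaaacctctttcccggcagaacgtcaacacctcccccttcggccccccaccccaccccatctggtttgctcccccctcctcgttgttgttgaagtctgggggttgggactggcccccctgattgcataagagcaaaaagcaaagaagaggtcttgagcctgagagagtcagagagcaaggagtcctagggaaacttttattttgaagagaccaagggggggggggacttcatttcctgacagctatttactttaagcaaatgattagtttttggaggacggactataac
Dab2: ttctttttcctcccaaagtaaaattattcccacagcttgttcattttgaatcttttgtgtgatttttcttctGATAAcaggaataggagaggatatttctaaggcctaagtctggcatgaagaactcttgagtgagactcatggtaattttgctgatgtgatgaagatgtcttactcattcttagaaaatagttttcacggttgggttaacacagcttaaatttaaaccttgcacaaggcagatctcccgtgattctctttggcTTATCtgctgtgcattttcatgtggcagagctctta
Lrp2: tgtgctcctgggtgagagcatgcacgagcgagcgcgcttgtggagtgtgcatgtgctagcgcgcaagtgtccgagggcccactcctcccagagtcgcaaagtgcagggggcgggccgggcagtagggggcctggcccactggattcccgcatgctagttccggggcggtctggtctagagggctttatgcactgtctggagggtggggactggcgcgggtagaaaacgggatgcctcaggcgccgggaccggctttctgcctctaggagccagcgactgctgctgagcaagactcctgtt
The upstream Dab2 window held 2 matches to the GATA words, at bases 73 to 77 and, on the other strand, 265 to 269, which do not overlap. Windows were at hand for 6 of the 10 genes, 9 in all, and 2 of the 9 (this one and 1 of the 3 of Foxa2) held a GATA word, against 41.6% of all 32851 windows of this length. None of the 9 held ATTGT or its complement, which 31.0% of all windows held. A match is only those letters in that window, and which start site an embryo used cannot be read from 3′ tags.

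In GRCm38, Sox17 lies on chromosome 1 from 4490931 to 4497354 on the minus strand, Gata4 on chromosome 14 from 63198922 to 63271692 on the minus strand, and Sox7 on chromosome 14 from 63943674 to 63950732 on the plus strand. Gata6 lies on chromosome 18 from 11052510 to 11085635 on the plus strand. Foxa2 lies on chromosome 2 from 148042877 to 148046969 and Cubn from 13276338 to 13491813 on the same chromosome, both on the minus strand, and Amn lies on chromosome 12 from 111271095 to 111276426 on the plus strand. Exons of Sox17 share 804 bases with Gm37587 on the opposite strand, those of Pdgfra 456 with Gm42802 and 166 with Gm42803 (and 30 with Mir7025 on the same strand), those of Gata6 58 with 1010001N08Rik, and those of Cubn 368 with Gm13270. The strand setting of the counting is not given in the sources used here, so reads of these pairs may not be separable.

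Gata6, the factor that opens the PrE programme, had UMIs in all 24 embryos. Its level ran from 289 to 639 CPM in 1C (median 544), 208 to 373 CPM in 2CB (median 257), 184 to 754 CPM in 4CB (median 277) and 226 to 648 CPM in 8CB (median 486). The stages overlapped, and the highest value of all was 4CB replicate 1, while the other 4CB embryos lay at or below 389 CPM. The 1C mean was 501 ± 131 (SD, n = 6) and the 8CB mean 463 ± 138, against 348 ± 211 for 4CB and 274 ± 63.5 for 2CB.

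Sox17, a SOX factor of the committed PrE, was close to absent from the 1C and 8CB pool. It was at 0 UMIs in 4 of 6 1C embryos, had 3 UMIs in each of the other two, and was at 0 in all 6 8CB embryos, where a count of 0 over 1500739 UMIs allows up to 2.00 CPM. In 2CB all 6 embryos had it, from 5.74 to 255 CPM (median 120.1), and in 4CB 4 of 6 did, from 0 to 277 CPM (median 47.0). Within each of these stages the embryos were far apart: 2CB replicates 5 and 6 had 6 and 2 UMIs and 4CB replicates 2 and 5 none, whereas 2CB replicate 2 had 309 UMIs and 4CB replicate 3 had 139. Pooled over embryos the level was 117 CPM in 2CB with 4CB and 2.03 CPM in 1C with 8CB.

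Gata4, a second GATA factor that follows Gata6, was low in all stages. It had 18 UMIs over the 1C embryos, 11 over 8CB, 91 over 2CB and 118 over 4CB, and was found in 7 of 12 embryos of the first pool and 8 of 12 of the other. A single embryo, 4CB replicate 3, held 85 of the 209 UMIs of the 2CB and 4CB pool, which is 40.7% (exact 95% binomial interval 33.9 to 47.7%, for counting error only), with 7.53% of that pool's UMIs. Its level there was 169 CPM, against 20.1 CPM over the other 11 embryos. Sox7, the SOX factor nearest to Sox17, had 9 UMIs in all, of which 2CB replicate 4 had 4, 4CB replicate 4 had 3 and 2CB replicate 2 had 2, and was at 0 in the 12 1C and 8CB embryos. All 3 embryos with Sox7 also had Sox17 and Gata4.

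Foxa2, a forkhead factor of later endoderm, was at 0 in the 12 1C and 8CB embryos and had 45 UMIs in 5 embryos of the other pool. Of these, 35 were in 2CB replicate 4 (77.8%, exact 95% interval 62.9 to 88.8%), an embryo with 9.70% of that pool's UMIs. Its Foxa2 level was 54.2 CPM, against 1.66 CPM over the other 11. Against the floor of 1.02 CPM, the pooled level of 2CB with 4CB was at least 6.65-fold higher, most of it from this embryo.

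Pdgfra, the receptor for platelet-derived growth factor that marks the PrE early, was found in 10 of 12 1C and 8CB embryos at low counts, with at most 20 UMIs. Its level was 0 to 40.5 CPM in 1C (median 10.2) and 0 to 56.1 CPM in 8CB (median 13.1). In 2CB it was 12 to 167 CPM (median 82.8), and in 4CB 0 to 193 CPM (median 53.2). In both of these stages 3 embryos were high and 3 low: 2CB replicates 2, 3 and 4 lay between 130.0 and 167 CPM and 4CB replicates 3, 4 and 6 between 95.5 and 193 CPM, with the rest at or below 35.6 CPM. The low embryos of 2CB and 4CB were within the range of 1C and 8CB.

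Dab2, the clathrin adaptor, was found in every embryo. It ran from 274 to 396 CPM in 1C (mean 357 ± 47.8, SD, n = 6), 514 to 803 CPM in 2CB (668 ± 123), 431 to 715 CPM in 4CB (541 ± 113) and 188 to 529 CPM in 8CB (371 ± 119). No 2CB or 4CB embryo was below the highest 1C embryo, but 8CB replicates 3 and 6, at 529 and 451 CPM, overlapped them. Lrp2, the megalin gene, was 34.3 to 365 CPM in 1C (165 ± 130.0), 373 to 1353 CPM in 2CB (907 ± 356), 355 to 738 CPM in 4CB (560 ± 129) and 84.6 to 350 CPM in 8CB (177 ± 123). The lowest embryo of 2CB and 4CB, at 355 CPM, lay just under the highest 1C embryo, and this was the only overlap between the pools.

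Cubn and Amn, which form the cubilin and amnionless receptor, were near the detection limit. Cubn had 5 UMIs over 1C, 1 over 8CB, 13 over 2CB and 2 over 4CB, and Amn 3, 3, 44 and 5 in that order. Again 2CB replicate 4 stood out, with 10 of the 15 Cubn UMIs of its pool (66.7%, exact 95% interval 38.4 to 88.2%) and 33 of the 49 Amn UMIs (67.3%, 52.5 to 80.1%). This embryo had UMIs of all 10 genes and at least 5 UMIs of 9 of them, its Gata4 was also the highest of 2CB, at 74.3 CPM, and its total of 646117 UMIs was the third highest of 2CB. The only other embryo with UMIs of all 10 genes was 4CB replicate 4, of 1130360 UMIs. An 8CB embryo had UMIs of 3 to 6 of the genes and a 1C embryo of 4 to 7, while in 2CB the number was 6 to 10 and in 4CB 4 to 10.

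**Figure D1:**
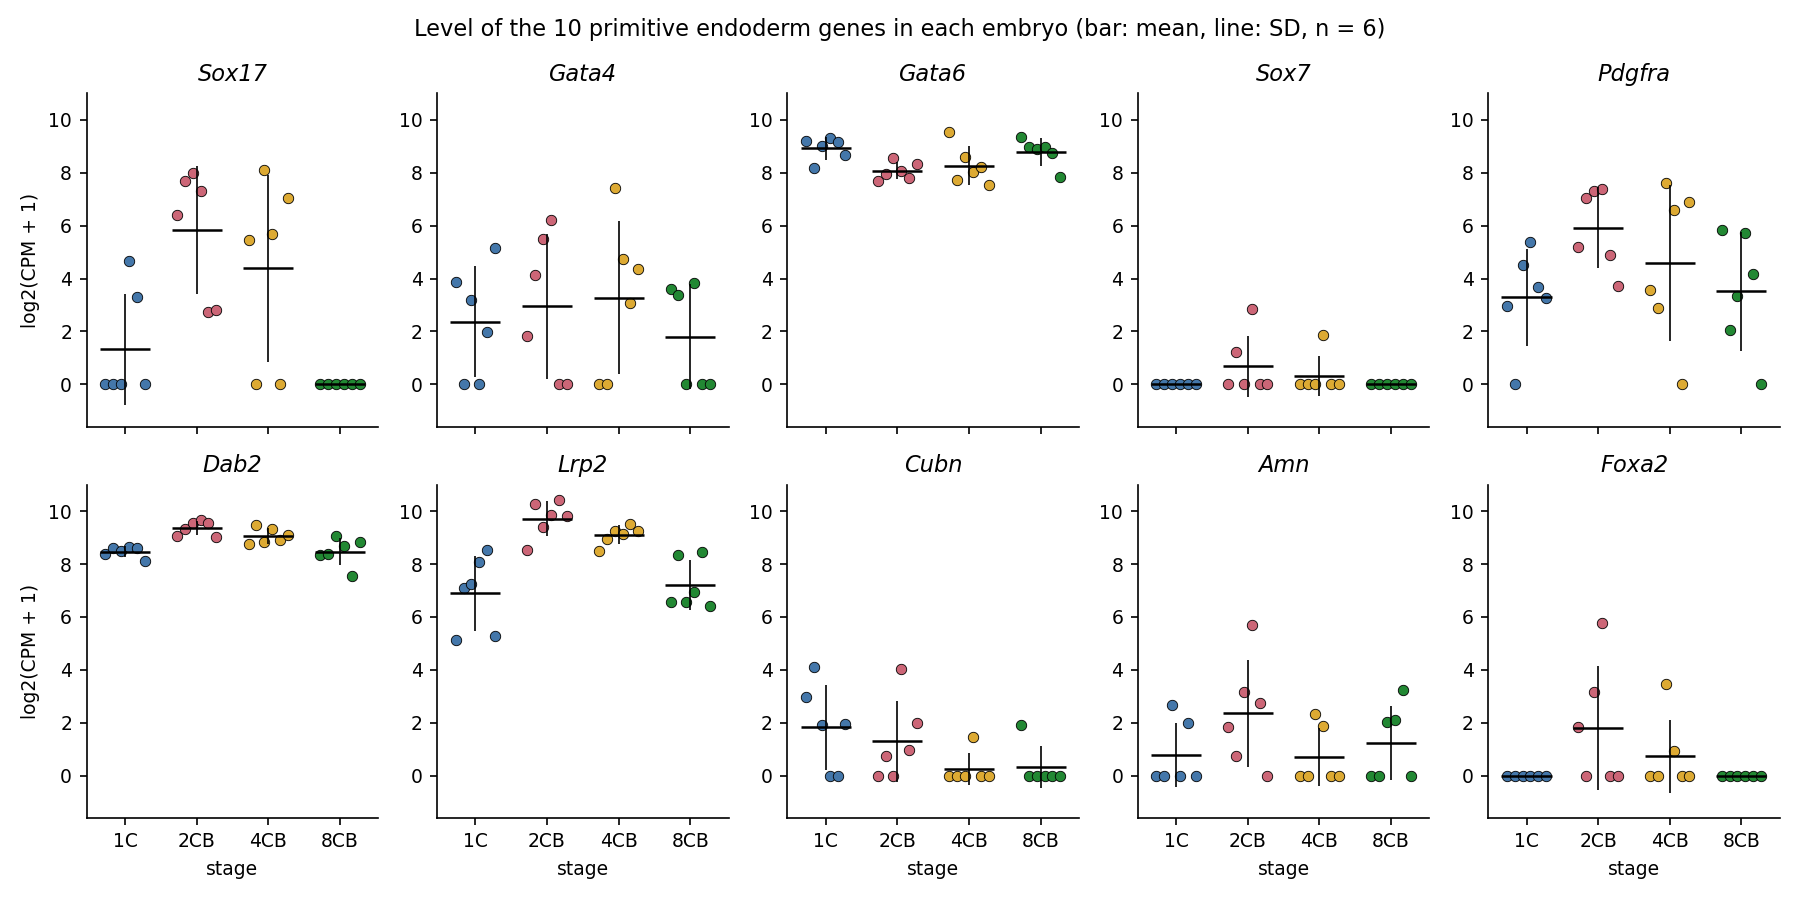
Level of each gene as log2(CPM + 1) on the vertical axis for the 6 embryos of each stage, with 1 point per embryo, a bar at the mean and a line of 1 SD either side. Gata6, Dab2 and Lrp2 were measured in every embryo, Sox17 and Pdgfra were spread over a wide range within 2CB and 4CB, and Sox7, Cubn, Amn and Foxa2 were at or near 0 in most embryos.

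The question of how the PrE genes differed between the stages was addressed with the quasi-likelihood F test of edgeR over all 5940 genes with enough UMIs, at a Benjamini-Hochberg adjusted p below 0.1. Among the 10 genes 5 passed that filter (Sox17, Gata6, Pdgfra, Dab2 and Lrp2). Of these, Sox17 and Pdgfra reached its cutoff of 30.2 CPM in 6 embryos only through 2CB and 4CB. Passing in this way favours a difference in these genes, so the count of calls is no support. All 5 were called among the 4 stages, as were 47.1% of all genes tested. In the contrast of the 2CB and 4CB pool with the 1C and 8CB pool, again all 5 were called, where 55.3% of all genes tested were, 31.3% higher and 24% lower. Sox17 was higher (adjusted p = 2.33e-05), at a pooled 117 CPM against 2.03 CPM, a ratio of 57.4 that rests on 6 UMIs in 1C and 0 in 8CB. The embryo 1C replicate 4 held 3 of these 6 UMIs, and the rest of that pool was at 1.06 CPM. The fitted log2 value of Sox17 is no bound and moved with the setting. It went from 6.40 (SE 1.06) to 5.61 with DESeq2 and 4.69 when thinned to the smallest total. Lrp2 was higher by 2.04 on the log2 scale (SE 0.31, adjusted p = 3.96e-06), Pdgfra by 2.02 (SE 0.57, adjusted p = 0.00397) and Dab2 by 0.70 (SE 0.16, adjusted p = 0.000591). Gata6 was lower, by a log2 fold change of -0.67 (SE 0.21, adjusted p = 0.00991). The median log2 fold change of all 5940 genes was 0.12. Each of these 5 calls remained when any 1 of the 24 embryos was left out. The 2 sides are also the library pools, which cannot be told apart from the stages, and the trophectoderm markers above moved with them, whose part in these differences was not tested.

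A permutation test of the mean log2(CPM + 1), 12 embryos against 12 with 100000 resamples and no adjustment, was run for all 10 genes after the data were seen. It gave p = 1e-05 for Lrp2, the smallest these resamples can give, and permutation p = 2e-05 for Dab2, 0.00048 for Sox17, 0.00403 for Gata6 and 0.0491 for Pdgfra. Of the 5 genes below the filter, Foxa2 had a permutation p of 0.0367, Sox7 0.218, Gata4 0.292, Amn 0.417 and Cubn 0.594. Without the filter, edgeR tested all 10 and called 8 of them in this contrast, against 23.8% of the 23171 genes. Gata4 was then 1.69 higher on the log2 scale (SE 0.46, adjusted p = 0.00216), but 4CB replicate 3 held 85 of its 209 UMIs in 2CB and 4CB. Foxa2 (adjusted p = 0.0017) and Sox7 (adjusted p = 0.0812) were at 0 in the 1C and 8CB pool and have no fold change. The embryo 2CB replicate 4 held 35 of the 45 Foxa2 UMIs, and Sox7 had 9 UMIs in all, so these calls lean on few embryos. Amn (1.07, SE 0.85, adjusted p = 0.480) and Cubn (-0.13, SE 1.28, adjusted p = 1.000) were not called.

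Within the pools no PrE gene was called. For 8CB against 1C, where 0% of all 5940 genes were called by edgeR and 550 had an unadjusted p below 0.05, Gata6 differed by -0.07 on the log2 scale (SE 0.30), Dab2 by 0.09 (SE 0.23), Lrp2 by 0.13 (SE 0.44) and Pdgfra by 0.86 (SE 0.90), and the 6 Sox17 UMIs of this pool were all in 1C. For 4CB against 2CB, where 0.0337% of genes were called, Sox17 differed by -0.48 (SE 0.79; -1.40 without 4CB replicate 3), Gata6 by 0.34 (SE 0.30), Pdgfra by -0.29 (SE 0.68), Dab2 by -0.34 (SE 0.22) and Lrp2 by -0.73 (SE 0.41). All adjusted p values of these genes were 0.673 or above.

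**Figure D2:**
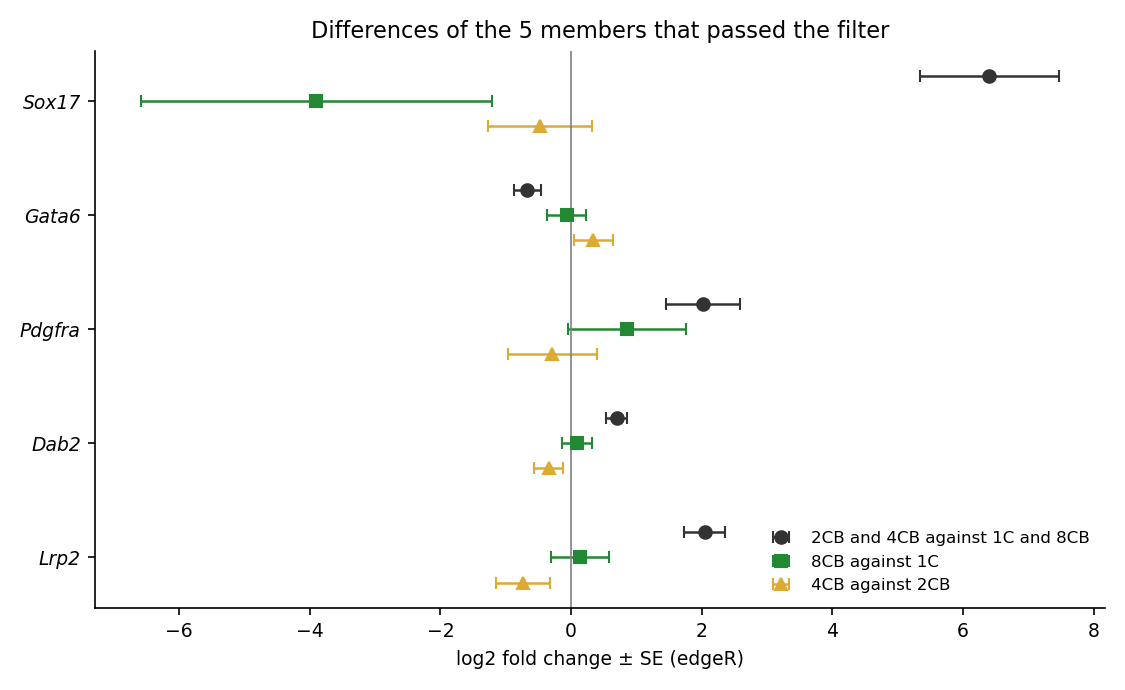
Log2 fold change (horizontal axis, with 1 SE from edgeR either side) of the 5 genes that passed the filter, for the 2CB and 4CB pool against the other pool (circles), 8CB against 1C (squares) and 4CB against 2CB (triangles). In the first comparison 4 genes lie above 0 and Gata6 at -0.67, and in the other comparisons no gene was called, and the Sox17 values that involve 8CB are fitted against 0 UMIs there and are no bounds.

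The 4 pairs of stages across the pools share their groups, so their values are given side by side. Of 20 values (5 genes in 4 pairs), 17 were called, beside 41.5% of all genes for 2CB compared with 1C and 40.9% for 4CB compared with 1C. The share was 38.4% where 2CB and 40.2% where 4CB was set against 8CB. Sox17 and Pdgfra passed the filter only through 2CB and 4CB, so the count of 17 calls is no support for a difference. Relative to 1C, Lrp2 was higher by 2.47 (SE 0.44) in 2CB and 1.74 (SE 0.44) in 4CB, and relative to 8CB by 2.34 (SE 0.44) and 1.61 (SE 0.44). Against 1C, Sox17 was higher by 4.69 (SE 1.17) in 2CB and by 4.21 (SE 1.18) in 4CB. Against 8CB, with Sox17 at 0, the pooled level was at least 63.7-fold higher in 2CB and at least 48.6-fold higher in 4CB. 4CB replicate 3 held 139 of the 228 Sox17 UMIs of 4CB, and without it the bound was 24.1-fold, while without 2CB replicate 2 that of 2CB was 42.9-fold. Dab2 was higher by 0.91 (SE 0.22) for 2CB against 1C and by 0.83 (SE 0.22) for 2CB against 8CB. For 4CB, Dab2 was higher by 0.58 (SE 0.23, adjusted p = 0.0496) against 1C and by 0.49 (SE 0.23, adjusted p = 0.0983) against 8CB. Gata6 was lower in 2CB than in 1C (-0.87, SE 0.30) and 8CB (-0.80, SE 0.30), but for 4CB its adjusted p was 0.173 against 1C and 0.245 against 8CB. Pdgfra was higher in 2CB and 4CB than in 1C (2.60, SE 0.83, and 2.31, SE 0.84) and in 2CB than in 8CB (1.74, SE 0.76, adjusted p = 0.0807), and not called for 4CB against 8CB (adjusted p = 0.152).

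Of these 17 calls, 13 remained with any 1 embryo left out, among them calls of Sox17 and Pdgfra, which the filter favoured. All 4 Dab2 calls were lost when every embryo was thinned to 70941 UMIs, although Dab2 between the pools was still called (0.51, adjusted p = 0.0271). Dab2 in 4CB against 8CB was lost without any of 23 of the 24 embryos (adjusted p up to 0.340, kept only without 8CB replicate 3), and Pdgfra in 2CB against 8CB without any of 8 embryos (2CB replicates 2, 3 and 4, 4CB replicate 4 and 8CB replicates 2, 3, 5 and 6; up to 0.191). Dab2 in 4CB against 1C was lost without 1C replicate 1 or 6 or 4CB replicate 2 or 4 (up to 0.185), and Pdgfra in 4CB against 1C without 4CB replicate 3 (0.147). Gata6 became lower in 4CB than in 8CB without 4CB replicate 1, its highest embryo, with an adjusted p of 0.0109. It also became lower in 4CB than in 1C without that embryo or without 1C replicate 2, and Pdgfra became higher in 4CB than in 8CB without 4CB replicate 5, with an adjusted p of 0.0989.

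To ask which PrE genes varied together from embryo to embryo, log2 CPM (prior count 2) minus the stage mean was correlated within each pool of 12 embryos, for PrE genes with UMIs in at least 9 of the 12 (4 genes and 6 pairs in the first pool, 5 genes and 10 pairs in the other). Every such gene was set against all other tested genes, 23728 relations in the 1C and 8CB pool and 29680 in the 2CB and 4CB pool, with 100000 permutations within stages. In both pools 0% of relations passed an adjusted p of 0.1. A single relation at the smallest permutation p would have an adjusted p of 0.237 and 0.297, so the design could call only several relations at once. At an unadjusted permutation p below 0.05 there were 7.08% of relations in the first pool and 5.56% in the other.

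The strongest relation between PrE genes was that of Sox17 and Pdgfra in the 2CB and 4CB pool. Pearson's r was 0.90 (permutation p = 6e-05, adjusted p = 0.501, n = 12) and Spearman's rho was 0.88 (permutation p = 0.00112, adjusted p = 0.827). It was 0.90 within the 6 2CB embryos and 0.91 within the 6 4CB embryos, 0.83 without the embryos farthest from the median of Sox17 (4CB replicates 2 and 5), and 0.87 to 0.94 with any 1 embryo left out. Of tested genes, 0.0337% had an r with Sox17 at least as high. Crygd was above Pdgfra, at 0.92 (adjusted p = 0.501), and Rbm34 (0.87) and Mcm3 (0.86) were just below it. These genes are on none of the lists used here, so an r of about this size with Sox17 was not confined to PrE genes. The 12 embryos lay apart in Pdgfra, 6 at 1.02 to 2.45 and 6 at -2.83 to -0.69 relative to their stage mean on the log2 scale, and the first 6 were all above their stage mean of Sox17, as were 2 of the other 6 (2CB replicate 1 at 0.43 and 4CB replicate 1 at 0.41). Within the upper 6 (2CB replicates 2, 3 and 4 and 4CB replicates 3, 4 and 6) r was 0.65, and within the lower 6 it was also 0.65. Since the sets were made by Pdgfra itself, its narrower range lowers r within them. Total UMIs were 151769 to 1507471 in the upper set and 132725 to 1045282 in the lower. The correlation with log2 total UMIs was 0.35 for Sox17 and 0.51 for Pdgfra, and r of the pair was 0.89 with log2 total UMIs taken out and 0.90 with every embryo thinned to 70941 UMIs.

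Gata6 was not closely tied to either gene in these embryos. Its r in the 2CB and 4CB pool was 0.17 with Sox17 (permutation p = 0.675; rho 0.26, p = 0.468) and -0.10 with Pdgfra (permutation p = 0.828; rho -0.05, p = 0.900), and without its 2 farthest embryos, 4CB replicates 1 and 6, the latter was 0.35. In the 1C and 8CB pool, by contrast, Gata6 and Pdgfra had the highest r of the 6 pairs, 0.76 (permutation p = 0.0037, adjusted p = 0.530) with rho 0.68 (permutation p = 0.0244, adjusted p = 0.857). Here r fell to 0.47 without the embryos farthest from the median of Gata6, 8CB replicate 6 and 1C replicate 2, which were also the 2 embryos with no Pdgfra UMI. It was 0.66 to 0.86 with any 1 embryo left out, 0.79 within 1C and 0.75 within 8CB. The correlation of Gata6 with log2 total UMIs was 0.61 in this pool, 8CB replicate 6 has the lowest total of all embryos, and r of the pair was 0.70 with log2 total UMIs taken out. Whether r of Gata6 and Pdgfra differs between the pools was not tested.

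**Figure D3:**
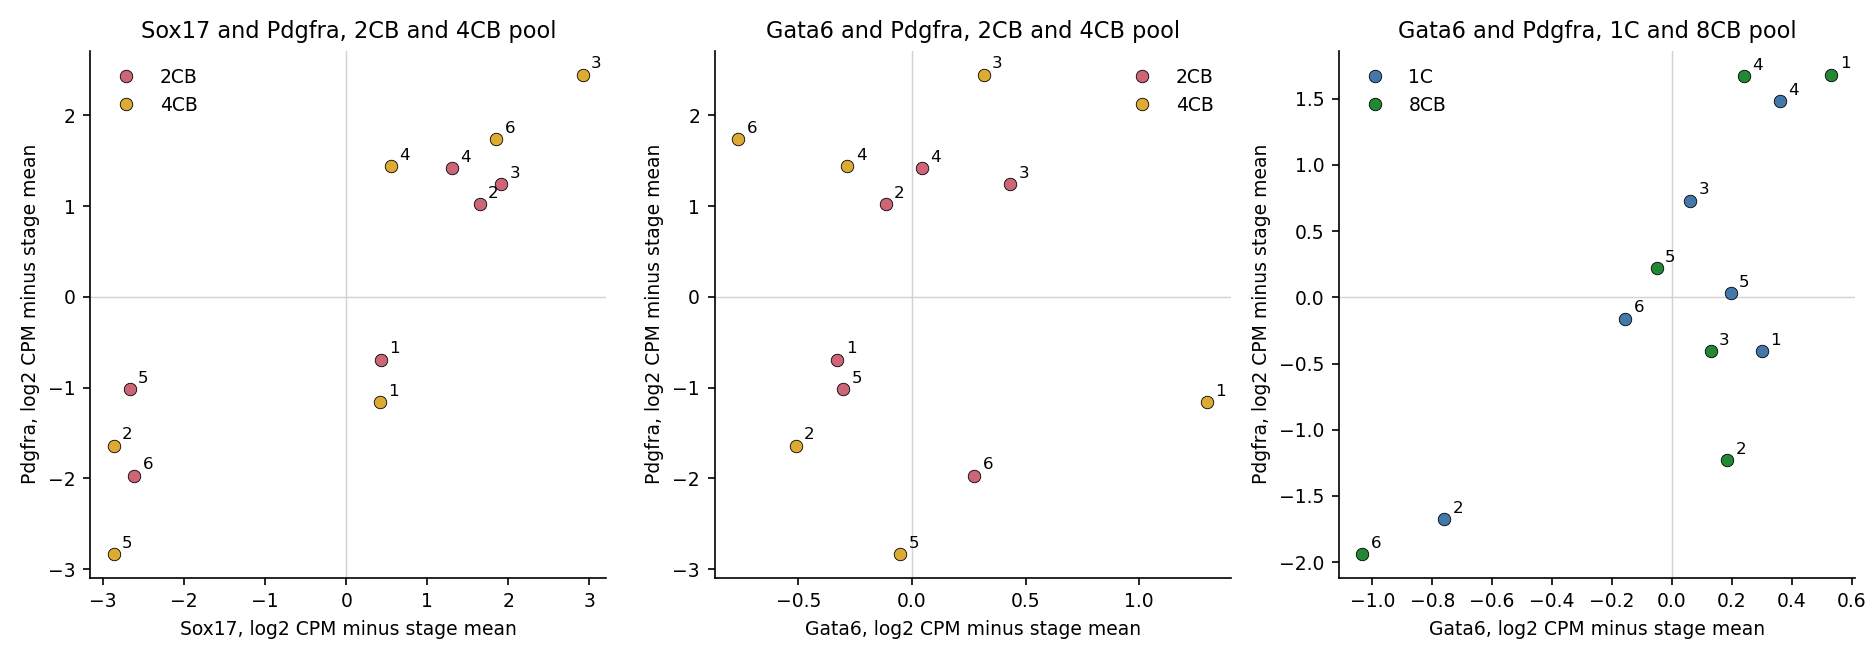
Deviation of log2 CPM from the stage mean for Sox17 and Pdgfra and for Gata6 and Pdgfra, with 1 point per embryo and its replicate number. In the 2CB and 4CB pool Sox17 and Pdgfra rise together (r = 0.90) and Gata6 and Pdgfra do not (r = -0.10), and in the 1C and 8CB pool the Gata6 and Pdgfra relation (r = 0.76) includes 8CB replicate 6 and 1C replicate 2 at the lower left, without which r was 0.47.

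For the endocytic genes Dab2 and Lrp2 no relation with each other or with the regulators passed, and r differed in sign between stages for several pairs. The r of Dab2 and Lrp2 was 0.25 in the 2CB and 4CB pool (permutation p = 0.453; rho 0.22, p = 0.503) and -0.22 in the 1C and 8CB pool (permutation p = 0.456; rho -0.06, p = 0.863), where it was 0.80 within the 6 1C embryos and -0.73 within the 6 8CB embryos. The r of Pdgfra and Dab2 was 0.72 within 2CB and -0.11 within 4CB, that of Sox17 and Dab2 0.38 and -0.48, that of Gata6 and Dab2 0.065 and -0.67, and that of Gata6 and Lrp2 -0.60 within 4CB. These differences between stages were not tested. With Sox17, r was -0.09 for Dab2 (permutation p = 0.783; rho -0.03, p = 0.928) and -0.22 for Lrp2 (permutation p = 0.515; rho -0.04, p = 0.913). With Pdgfra in the 2CB and 4CB pool, r was 0.20 for Dab2 (permutation p = 0.555; rho 0.26, p = 0.439) and 0.05 for Lrp2 (permutation p = 0.872; rho 0.04, p = 0.896), and with Gata6 it was -0.44 for Dab2 (permutation p = 0.196; rho -0.43, p = 0.189) and -0.26 for Lrp2 (permutation p = 0.306; rho -0.12, p = 0.704). In the 1C and 8CB pool the other 4 pairs had r between -0.11 and 0.16, with permutation p from 0.601 to 0.807. The 2CB embryos 2, 3 and 4, with most Sox17 and Pdgfra, had 1219, 678 and 918 CPM of Lrp2, and replicate 5, with 6 Sox17 UMIs, had the highest Lrp2 of all, 1353 CPM. In 4CB, replicates 2 and 5, with no Sox17 UMI, had 491 and 738 CPM of Lrp2, and replicate 3, with most, had 608 CPM. The adjusted p of these pairs lay between 0.900 and 0.997 over both pools. Leaving out the 2 farthest embryos took the r of Pdgfra and Dab2 to 0.57, of Dab2 and Lrp2 to 0.09 in this pool and 0.31 in the other, of Sox17 and Dab2 to 0.21, of Sox17 and Lrp2 to -0.15, of Sox17 and Gata6 to -0.03, of Gata6 and Dab2 to -0.40, of Gata6 and Lrp2 to 0.10 and of Pdgfra and Lrp2 to 0.29. In the 1C and 8CB pool it took that of Gata6 and Dab2 from -0.11 to 0.36, of Pdgfra and Lrp2 from 0.13 to 0.40, of Pdgfra and Dab2 from -0.11 to -0.26 and of Gata6 and Lrp2 from 0.16 to -0.020.

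**Figure D4:**
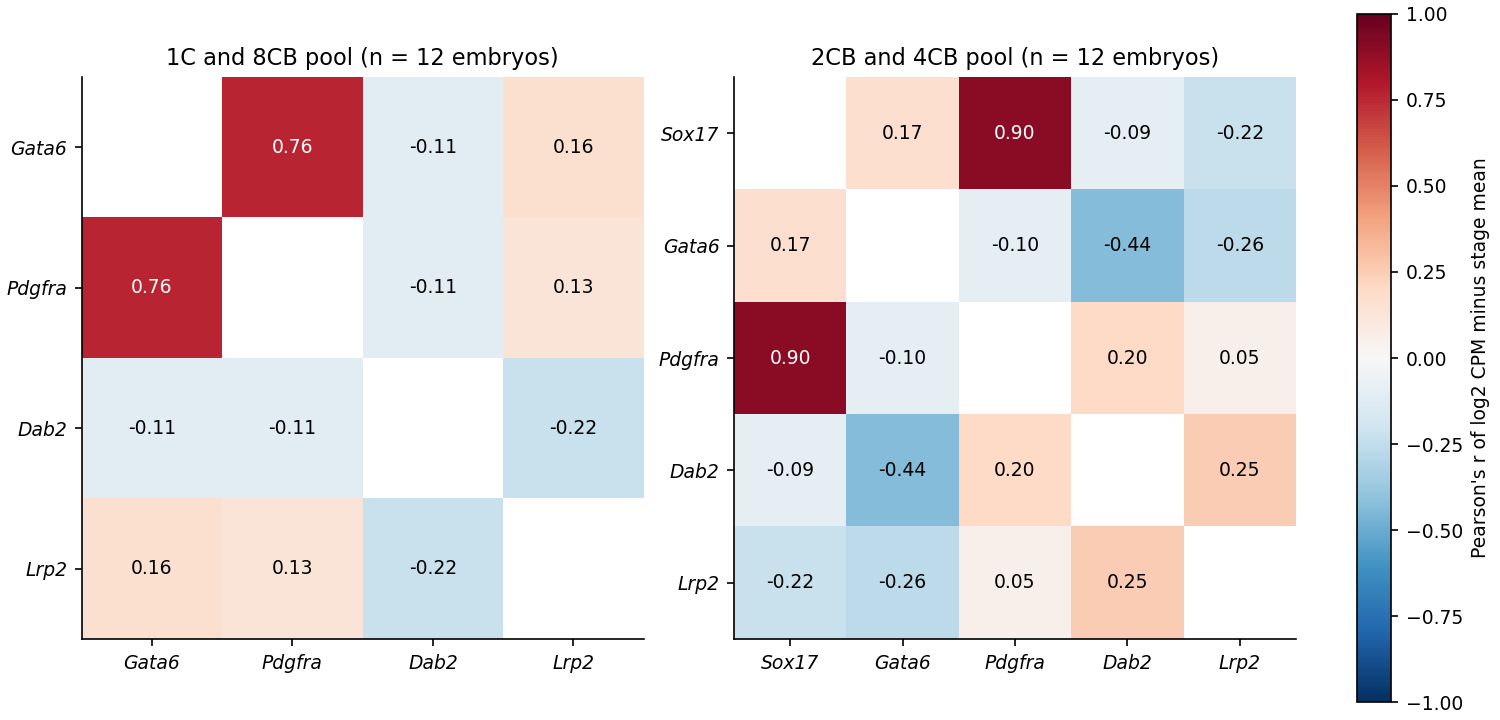
Pearson's r between the PrE genes with UMIs in at least 9 of 12 embryos, from log2 CPM minus the stage mean, for the 1C and 8CB pool (left, 4 genes) and the 2CB and 4CB pool (right, 5 genes). Sox17 with Pdgfra (0.90) on the right and Gata6 with Pdgfra (0.76) on the left stand out, and the other values lie between -0.44 and 0.25.

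The genes low in most embryos were compared by detection in the 12 2CB and 4CB embryos. Sox17 and Gata4 were both found in 7, Sox17 alone in 3, Gata4 alone in 1 (4CB replicate 5, with 1 UMI) and neither in 1. The 3 embryos with at least 29 Gata4 UMIs, 2CB replicate 4 and 4CB replicates 3 and 4, were all in the upper set by Pdgfra, and so were the 2 with 25 and 17. Amn and Foxa2 were found together in 5 embryos, and Foxa2 in none without Amn. Since detection moves with the total of an embryo, its part in these counts was not tested.

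The genes most like a PrE gene over both pools, by the mean of the 2 r values, had adjusted p of at least 0.447 in either pool and are given as descriptions. For Pdgfra they were Mtmr9 (r 0.85 in the 1C and 8CB pool and 0.73 in the 2CB and 4CB pool), Ahcy (0.81 and 0.76) and Col4a1 (0.63 and 0.91), a chain of basement membrane collagen that the PrE secretes. For Gata6 they were Papola (0.87 and 0.78), Baiap2 (0.72 and 0.80) and Dync1li1 (0.82 and 0.68). Those of Dab2 were Gigyf2 (0.66 and 0.82), Tpgs1 (0.80 and 0.61) and Socs2 (0.65 and 0.71), and those of Lrp2 were Hs2st1 (0.60 and 0.85), Azi2 (0.77 and 0.66) and Git2 (0.49 and 0.86).

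Of 23 other PrE genes 10 were tested, and between the pools 7 were higher and 1 was lower on the 2CB and 4CB side. Over all genes 31.3% were higher and 24% lower. Their median difference was 1.68 on the log2 scale, against 0.12 for all genes and 2.65 for the trophectoderm markers, of which several also passed the filter through 1 pool only. Sparc, a matricellular protein made in quantity by the PrE (5.43, SE 0.54, adjusted p = 3.38e-09), Apoe (3.47, SE 0.37), the laminin chain Lamb1 (1.77, SE 0.35), Col4a1 (1.59, SE 0.43) and the apolipoprotein Apoa1 (0.83, SE 0.41, adjusted p = 0.0942) rose. Foxq1, a forkhead factor, had 2 UMIs over the 12 1C and 8CB embryos against 1107 in 2CB and 480 in 4CB, and the laminin chain Lama1 had 1 against 749 and 235, and both were called. Sparc, Apoe, Col4a1, Foxq1 and Lama1 reached the filter's cutoff only through 2CB and 4CB, which favours a difference, so their calls are no support. Cited1, a transcriptional co-regulator, was the one that fell, with a log2 fold change of -3.78 (SE 0.35). Col4a2 (0.85, SE 0.44, adjusted p = 0.111) and P4ha2 (0.31, SE 0.27, adjusted p = 0.349) did not pass. Their summed level, over all 23, was 644 to 995 CPM in 1C, 1048 to 4456 CPM in 2CB, 542 to 3006 CPM in 4CB and 456 to 1396 CPM in 8CB, to which Cited1 alone gave a mean of 529 CPM in 1C and 491 CPM in 8CB against 42.7 CPM in 2CB and 29.7 CPM in 4CB. Afp and Ttr, genes of the later visceral endoderm, were at 0 in every embryo.

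Within the 2CB and 4CB pool, these PrE genes varied with Pdgfra at a median r of 0.70 and with Sox17 at a median r of 0.58, and with Gata6, Dab2 and Lrp2 at 0.02, 0.15 and 0.10. Over all tested genes the median r was 0.03 with Pdgfra and 0.03 with Sox17. Of these 10 genes, 5 (Sparc, Apoe, Col4a1, Foxq1 and Lama1) passed the filter only through this pool. The r with Pdgfra was 0.91 for Col4a1, 0.75 for Col4a2, 0.72 for Lamb1, 0.70 for Lama1 and 0.69 for Sparc, and Foxq1 had 0.86 with Pdgfra and 0.85 with Sox17. Apoe, Apoa1, Cited1 and P4ha2 lay between -0.07 and 0.21 with both genes. None of these relations passed the adjustment (adjusted p of 0.501 for Col4a1 with Pdgfra). In the 1C and 8CB pool the r of the 10 genes with Pdgfra ran from -0.33 to 0.68. The epiblast markers had a median r of 0.11 with Pdgfra and 0.08 with Sox17 in the 2CB and 4CB pool, and ran from -0.36 to 0.35 and from -0.41 to 0.31, with Nanog, the factor opposed to Gata6, lowest and Esrrb (0.35 with Pdgfra) and Bmp4 (0.31 with Sox17) highest. The trophectoderm markers had medians of -0.07 and -0.08, and ran from -0.68 to 0.12 and from -0.69 to 0.28, with Cdx2 lowest for both and Hand1 (0.12 with Pdgfra) and Id2 (0.28 with Sox17) highest. Krt8 (-0.55 with Pdgfra and -0.60 with Sox17), Krt18 (-0.64 and -0.48) and Gata2 (-0.34 and -0.40) were also below 0. No marker of either list passed.

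**Figure D5:**
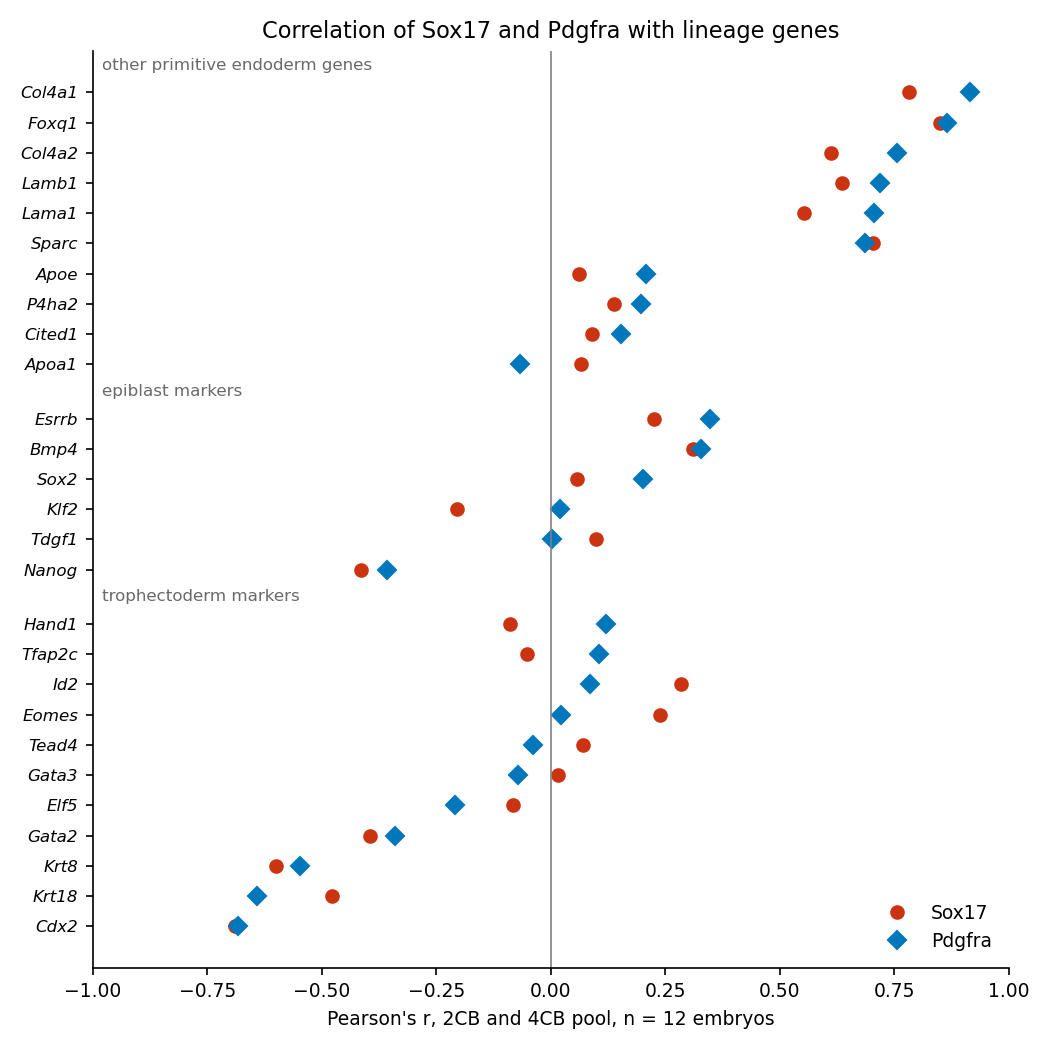
Pearson's r (horizontal axis, n = 12 embryos of the 2CB and 4CB pool) of Sox17 (circles) and Pdgfra (diamonds) with the tested genes of 3 lists. Foxq1, Sparc and the laminin and collagen genes lie at 0.55 or above with both genes, and the epiblast and trophectoderm markers have medians near 0. Cdx2 lies near -0.69 with both, Krt8 at -0.60 (Sox17) and -0.55 (Pdgfra), and Krt18 at -0.48 and -0.64.

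The receptors and relays of the FGF and PDGF signals were a second set of interest, since the former steers cells to the PrE and Pdgfra answers to the latter. Of 20 genes 11 were tested, and 5 were higher in 2CB and 4CB and 2 were lower, beside 31.3% and 24% of all genes, and the median was 0.62 against 0.12 over all genes. Dusp6, a phosphatase induced by ERK that passed the filter only through 2CB and 4CB (6.51, SE 0.38), the receptor Fgfr1 (1.98, SE 0.36), the feedback gene Spry2 (1.27, SE 0.26), the Pdgfra ligand Pdgfa (1.19, SE 0.29) and Pik3ca (0.73, SE 0.25) rose. The exchange factor Sos1 (-1.67, SE 0.29) and the phosphatase Ptpn11 (-1.29, SE 0.35) fell. Ptpn11 is outside the rule for named genes and was chosen after its values were seen. Fgfr2 (0.62, SE 0.38), Map2k1 (0.28, SE 0.32) and Grb2 (-0.54, SE 0.30) did not pass.

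Of 28 genes of receptor-mediated endocytosis 18 were tested, and 9 were higher and 0 lower in the 2CB and 4CB pool. Of all genes 31.3% were higher and 24% lower, 55.3% in either direction. The median of the 18 was 0.51 against 0.12 over all genes. The 9 higher genes included 3 subunits of the AP-2 adaptor that clathrin binds, Ap2b1 (1.63, SE 0.32), Ap2a2 (1.33, SE 0.22) and Ap2m1 (0.92, SE 0.27). Of these, Ap2b1 passed the filter by 2CB and 4CB only. Clathrin heavy chain Cltc (0.72, SE 0.17) and light chain Clta (0.50, SE 0.19), the GTPase gene Rab7 (0.75, SE 0.26) and Ehd1 (0.61, SE 0.23) rose too. Lrpap1, the chaperone of megalin (0.41, SE 0.21, adjusted p = 0.109), Ap2s1 (0.38, SE 0.22), Picalm (0.40, SE 0.27), Eps15 (-0.35, SE 0.33), Itsn1 (0.03, SE 0.33), Rab5c (0.02, SE 0.16) and Rab11a (0.01, SE 0.24) did not pass. With Lrp2 the 18 genes had a median r of 0.01 between 2CB and 4CB embryos. With Pdgfra the median was -0.05 (-0.87 to 0.29) and with Sox17 0.05 (-0.76 to 0.42), with Ap2b1 lowest for both. None of these relations passed. In the epiblast list 3 genes rose and 3 fell: Sox2 (1.96, SE 0.52) and Bmp4 (5.51, SE 0.60), which passed the filter only through 2CB and 4CB, rose, and Nanog (-1.49, SE 0.38), Klf2 (-1.34, SE 0.32) and Esrrb (-2.02, SE 0.31) fell, while 8 of the 11 trophectoderm genes rose and 2 fell, of which Elf5, Cdx2, Gata2, Id2, Krt18 and Krt8 passed the filter only through 2CB and 4CB and Hand1 only through 1C and 8CB. None of the genes on these 5 lists was called within either pool.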

How the data were processed

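Single pseudoblastocysts were sequenced with CEL-Seq2, and the deposited table holds UMI counts per gene and embryo, not normalized. Per the submitters' processing notes the authors used HISAT2 2.2.6, HTSeq 0.6.1 and DESeq2 1.10.1, and per the study's methods reads were aligned to GRCm38 and duplicates with a shared UMI were collapsed to 1 before counting. The strand setting is not given in the sources used here. The 24 columns of 1C, 2CB, 4CB and 8CB embryos were used and 24 other columns of embryos were not used here. The 37 mitochondrial genes were at 0 throughout. Stages came from the labels and column names. The 10 genes, the lists and the tests were chosen with earlier results of these data known.

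Counts were tested with edgeR 4.0.16 in R 4.3.3 (quasi-likelihood F test, TMM factors 0.928 to 1.07, 1 mean per stage, all 24 embryos in 1 fit, genes kept by filterByExpr, Benjamini-Hochberg adjusted p below 0.1). Correlations used residuals of log2 CPM (prior count 2) from the stage mean and 100000 permutations within stages (NumPy 2.4.6, SciPy 1.17.1), adjusted over all relations of a pool. Both tests were checked on simulated data. Genes named were the 10 and the 3 most alike in both pools for each. For Sox17, correlated only in the 2CB and 4CB pool, the 3 most alike there besides Pdgfra were named. Genes of each list with a mean of at least 50 CPM or among the 2 with the lowest adjusted p were named too. Some genes of the lists are counted but not reported here by name. Alternatives were DESeq2 1.42.0, other size factors, filters, thinning to 70941 UMIs, a replicate block, and leaving out each embryo. The single-gene permutation tests were added after the data were seen. Totals of 70941 to 1507471 UMIs set the precision, and intervals and floors (3 counts) cover counting error only.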

Additional observations from a re-analysis of the deposited data

Results flagged for a closer look

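In each stage, the highest or lowest of the 6 embryos was singled out where its gap to the next embryo, as a share of the range of the stage, was above 0.625. Of 35 sets of 6 values 11 met this, in 7 genes, where chance gives about 1 in 20 for normally distributed values. That rate does not hold for genes with few UMIs, where 1 embryo with a UMI among embryos at 0 meets the rule by construction.

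The embryo 2CB replicate 4 accounted for 4 of the 11. It was far above the other 2CB embryos in Foxa2 (54.2 CPM against 7.82 in the next, a gap of 0.856 of the range). The same held for Amn (51.1 against 7.82 CPM, 0.847) and, on 10 UMIs, Cubn (15.5 against 3.0 CPM, 0.806). Its gap in Sox7 (6.19 against 1.33 CPM, 0.786) rests on 4 UMIs against 2 in the next embryo. In 4CB, replicate 3 stood apart in Foxa2 (9.97 against 0.885 CPM, 0.911) and Gata4 (169 against 25.7 CPM, 0.849), and replicate 1 in Gata6 (754 against 389 CPM, 0.641). The remaining 4 rest on 1 to 3 UMIs in the embryo concerned: Sox7 (2.65 CPM) and Cubn (1.77 CPM) in 4CB replicate 4 and Cubn in 8CB replicate 1 (2.80 CPM), each with a gap of 1 of the range because the other 5 embryos were at 0, and Sox17 in 1C replicate 4 (24.3 against 8.75 CPM, 0.640).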

How the results depend on the processing

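Among the 4 stages and between the pools, 5 of the 10 genes were called, and without the filter on low counts 8 were called in both, beside 22.4% and 23.8% of all genes. These 8 differ by a gene, since Amn was called only among the stages and Sox7 only between the pools. Among the 4 stages 4 were called after thinning, with the stricter filter (5 UMIs in 12 embryos, where Sox17 was not tested) and at an adjusted p below 0.05, and between the pools 4 with the stricter filter. With any 1 embryo left out both counts stayed at 5, none was called within a pool, and calls between pairs of stages across the pools ranged from 14 to 18 (17 with all embryos). Other settings gave 12 (stricter filter), 13 (thinned), 15 (adjusted p below 0.05) and 17 (DESeq2, RLE factors) of these calls. Without the filter 21 of 40 values of all 10 genes were called, 16 of them among the 20 values of the 5 genes. Replicate numbers did not pair the embryos (mean correlation of same-numbered embryos -0.016, range -0.25 to 0.22). With the replicate block 5 genes were called among the stages, 5 between the pools and 0 within pools, and 16 of the 20 values over the pairs. Gata6 in 4CB against 1C became a call with the block, and Pdgfra in 2CB against 8CB and Dab2 in 4CB against 8CB were lost.

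Directions turned only in differences and correlations that had not been called. After thinning, Gata6 in 8CB against 1C became 0.14, Sox17 in 4CB against 2CB 0.045, r of Gata6 and Lrp2 -0.014 in the 1C and 8CB pool and 0.13 in the 2CB and 4CB pool, and in the latter r of Sox17 was 0.014 with Dab2 and 0.050 with Lrp2. There r of Pdgfra and Lrp2 was -0.014 with a prior count of 0.5 and -0.14 with log2 total UMIs taken out. The cause was not tested.

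With 1 embryo left out, log2 fold changes of 8CB against 1C ran from -0.19 to 0.071 for Gata6, -0.060 to 0.23 for Dab2 and -0.17 to 0.55 for Lrp2, and those of 4CB against 2CB from -1.40 to -0.17 for Sox17, -0.071 to 0.45 for Gata6 and -0.89 to 0.017 for Pdgfra. In the 1C and 8CB pool r ran from -0.23 to 0.11 (Gata6 and Dab2), -0.054 to 0.32 (Gata6 and Lrp2), -0.26 to 0.015 (Pdgfra and Dab2), -0.0074 to 0.27 (Pdgfra and Lrp2) and -0.38 to 0.15 (Dab2 and Lrp2). In the 2CB and 4CB pool it ran from -0.33 to 0.22 (Sox17 and Dab2), -0.22 to 0.13 (Gata6 and Pdgfra), -0.63 to 0.090 (Gata6 and Lrp2) and -0.077 to 0.26 (Pdgfra and Lrp2).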

Other observations

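Several other PrE genes were below the filter and are given after their values were seen. Aqp8, a water channel, had 92 UMIs over the 2CB embryos and 49 over 4CB, and Pth1r, the receptor for parathyroid hormone and its related protein, had 56 and 33, and both were at 0 in all 12 1C and 8CB embryos. Serpinh1, a collagen chaperone, had 378 and 133 UMIs in 2CB and 4CB against 1 in 1C and 3 in 8CB. Hnf4a, a nuclear receptor of the visceral endoderm, had 66 and 37 against 1 and 2. Bmp2, a signalling ligand, had most of its UMIs in 8CB (32, against 4 in 1C, 18 in 2CB and 5 in 4CB), and Srgn, a proteoglycan core protein, was found at similar mean levels in all stages, from 6.69 CPM in 4CB to 11.9 CPM in 1C. These genes were not in the filtered test, and their values in the test without the filter are not given here.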
